A study of Bos taurus with 9 samples.

Results

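The bovine genome assembly ARS-UCD1.2 holds, besides 29 autosomes and the X chromosome, scaffolds that could not be assigned to a chromosome. Of the 2257 lncRNAs deposited for LPS-treated mammary epithelial cells, 25 were located on such unplaced scaffolds, by a transcript locus that begins with NKLS, and the other 2232 were on chromosomes. The locus alone put 23 of them in the set. ENSBTAT00000083638 and ENSBTAT00000069275 were in addition chosen by their FPKM, the first for being lower with LPS and the second for extreme values in 2 libraries, so their values are described here without a test.

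The cells were of the bovine line MAC-T, mammary epithelial cells immortalized for culture, and thus a single line. They were harvested untreated (0 h) or after exposure to 50 ng/μL LPS for 6 h (6 hpi) or 12 h (12 hpi), in 3 replicates each. A separate plate was used for every time point, and the methods name no untreated cells harvested at 6 or 12 h. Effects of the plate and of the added hours in culture cannot be told apart from those of LPS, here and below. With 1 plate per time point, the replicates of a group shared a plate as far as the methods tell, and SDs and p-values then describe the spread within it.

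Long non-coding RNAs are transcripts that are not translated into protein, and many are thought to act on genes close to their own site of transcription. Lipopolysaccharide of Gram-negative bacteria such as Escherichia coli is sensed by TLR4 and starts an inflammatory response in mammary epithelium. Unplaced scaffolds tend to hold duplicated genes, gene families and repeats, because near-identical copies are hard to order in an assembly. Reads from such copies can fit several places. The sources used here do not state how reads with several matches were counted, and the levels of these lncRNAs may include reads of copies elsewhere.

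The unit is FPKM, the fragments of a transcript scaled to its length and to the mapped fragments of the library, so levels can be compared between lncRNAs. The study states the mapped reads of each library, but the files used here hold no fragment number for single transcripts, so no counting interval is printed. Across all lncRNAs, 0 h replicate 3 was about as close to LPS-treated cells as to the other untreated libraries. Squared correlations of log10(FPKM + 1) with the 6 libraries of LPS-treated cells were 0.645 to 0.745 for this library, which had 0.621 and 0.687 with its own group, against 0.515 to 0.638 for 0 h replicates 1 and 2 with those 6. Fold changes against 0 h are therefore also given without 0 h replicate 3, and for some lncRNAs with 0 h replicates 1 and 2 left out together. In the sequencing summary of the study, 0 h replicates 1 and 2 had the lowest mapped ratios of all libraries. They also had the lowest Q30, a measure of base quality. Which of the untreated libraries are the unusual ones was not tested. No lncRNA had a host gene among the 26 genes fixed as markers of mammary epithelium (11), fibroblasts and mesenchyme (8) and leukocytes (7), and protein-coding transcripts were not analysed here, so the label of the cells could not be checked.

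The 25 lncRNAs lay on 12 scaffolds. A single lncRNA was found on 7 scaffolds, and 5 carried the other 18. NKLS02001967.1 held 7 and NKLS02000657.1 held 5, while NKLS02001139.1, NKLS02001410.1 and NKLS02002005.1 held 2 each. Lying on the same strand as a gene and overlapping it was the most frequent type, with 15 of 25 (60%) against 37.2% of the lncRNAs on chromosomes. There were 5 intergenic lncRNAs (20%, against 27.2%), 3 with an Ensembl identifier (12%, against 9.27%) and 2 antisense ones (8%, against 26.4%). Where lncRNAs of 1 gene overlap, the division of fragments among them is an estimate.

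Levels were about those of other lncRNAs. Averaged over the 9 libraries, their FPKM had a median of 0.704 (quartiles 0.524 and 1.29), and it was 0.684 for lncRNAs on chromosomes (quartiles 0.468 and 1.22). All 9 libraries had values above 0 for 20 of the 25 (80%), as they did for 71.2% on chromosomes. The highest library lay more than 20 times above the median of the 9 for 4 of the 25. ENSBTAT00000069275 is 1 of these and was chosen for it, and TCONS_00153490 and TCONS_00153676 have a median of 0, above which any value counts, so that ENSBTAT00000083033 is the only other one with a ratio. On chromosomes the same holds for 129 lncRNAs, 84 of them with a median of 0, and the counts are given as a description.

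**Figure D1:**
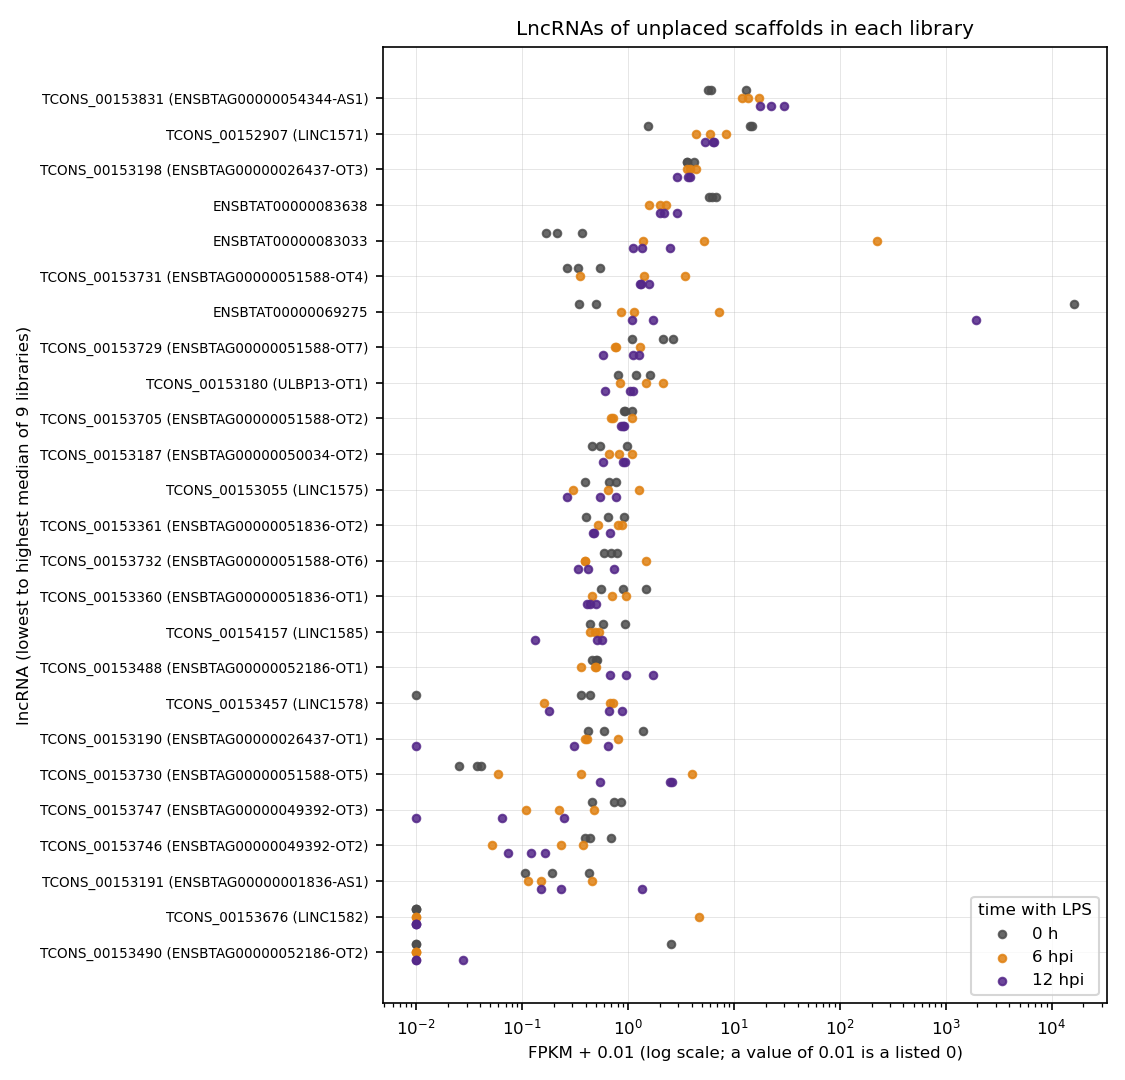
FPKM of the 25 lncRNAs of unplaced scaffolds in each of the 9 libraries, on a logarithmic axis after adding 0.01; each point is 1 library, coloured by time with LPS, and lncRNAs are ordered by their median. Most points lie between 0.1 and 10 FPKM, and the points far to the right belong to ENSBTAT00000069275 (16334 and 1923 FPKM) and ENSBTAT00000083033 (225 FPKM).

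ENSBTAT00000069275 and ENSBTAT00000083033 are annotated lncRNAs on the same scaffold, NKLS02002005.1, from 77605 to 79758 and from 67957 to 69416 of ARS-UCD1.2, with 8188 bases between them. ENSBTAT00000069275 was listed at 0.495, 16334 and 0.333 FPKM in the 0 h libraries, at 7.27, 1.12 and 0.844 at 6 hpi and at 1923, 1.71 and 1.08 at 12 hpi. One untreated library and 1 of LPS-treated cells were thus extreme, and the other 7 stayed within 0.333 to 7.27 FPKM. In 0 h replicate 2 this single lncRNA made 79.9% of the summed FPKM of all lncRNAs, in 12 hpi replicate 1 27.6%, and in the other 7 libraries between 0.00735% and 0.149%. It was the most abundant lncRNA of those 2 libraries and ranked between 86 and 1746 in the others.

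No fold change of ENSBTAT00000069275 was independent of these 2 libraries. Its log2 fold change of FPKM + 0.1 between 6 hpi and 0 h was −2.98, and without 0 h replicate 2 it was 2.01. Between 12 and 6 hpi it was 2.97, and without 12 hpi replicate 1 it was −0.48. Leaving the lncRNA out, the FPKM summed over the other 24 lncRNAs of unplaced scaffolds was between 37.2 and 55.4 in 8 libraries and 270 in 6 hpi replicate 1, the library where ENSBTAT00000083033 was high.

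ENSBTAT00000083033 was higher in LPS-treated cells. It had 0.158, 0.356 and 0.206 FPKM at 0 h, 225, 1.39 and 5.23 at 6 hpi and 1.36, 1.11 and 2.50 at 12 hpi. Every library of LPS-treated cells was above every untreated one, while 6 hpi replicate 1 was 43.1 times above the next highest library. No untreated library exceeded 0.5 FPKM, so it entered the tests through LPS-treated cells alone, and its p-values are a description. At 6 hpi the log2 fold change against 0 h was 5.20 (standard error 1.48, unadjusted p = 0.00656, adjusted p = 0.339 from limma). This met the thresholds of the study, which ask for a log2 fold change above 1 in either direction and for an unadjusted p under 0.05. It also met them without 6 hpi replicate 1, at 3.09, and without 0 h replicate 3, at 5.15, but not with 0 h replicates 1 and 2 left out together (5.31, unadjusted p = 0.0593). At 12 hpi the log2 fold change against 0 h was 2.33 (standard error 1.48, unadjusted p = 0.15, adjusted p = 0.493) and did not meet them. Without 6 hpi replicate 1 the same 2.33 had a standard error of 0.53 and met them (unadjusted p = 0.00233).

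The high values of the neighbours did not fall in the same libraries. In 6 hpi replicate 1, where ENSBTAT00000083033 had 225 FPKM, ENSBTAT00000069275 had 7.27, its highest value outside the 2 extreme libraries. Conversely, ENSBTAT00000083033 stood at 0.356 and 1.36 FPKM in the 2 libraries where ENSBTAT00000069275 was extreme. Over the 9 libraries the Pearson correlation of their log2(FPKM + 0.1) was −0.06, as a description of 9 points.

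**Figure D2:**
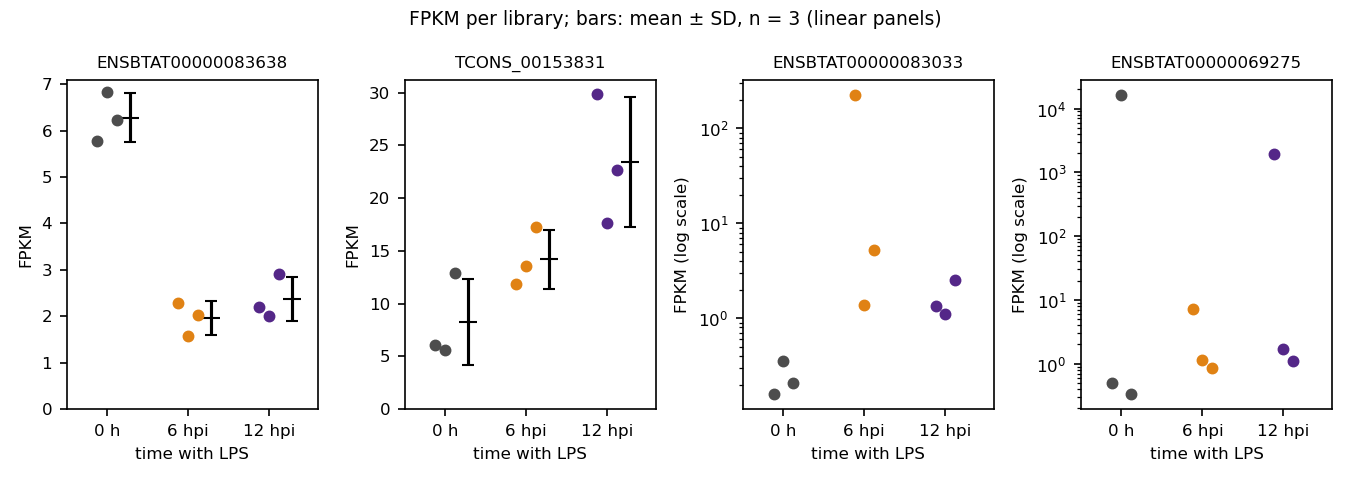
FPKM by time with LPS for 4 lncRNAs of unplaced scaffolds, 1 point per library, with mean ± SD (n = 3) in the 2 panels on a linear axis and no mean in the 2 panels on a logarithmic axis. The untreated libraries of ENSBTAT00000083638 lie at or above 5.77 FPKM and those of LPS-treated cells at or below 2.90, TCONS_00153831 has its highest libraries at 12 hpi, and the other 2 lncRNAs have single libraries far from the rest.

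ENSBTAT00000083638 is the third annotated lncRNA and the only one on NKLS02001549.1, from 7675 to 8744. Its FPKM was 5.77, 6.83 and 6.24 at 0 h, 2.30, 1.57 and 2.02 at 6 hpi and 2.20, 2.00 and 2.90 at 12 hpi. The untreated libraries were all above those of LPS-treated cells, and the values of 6 and 12 hpi overlapped. Untreated replicates were close together, and 0 h replicate 3 lay between the other 2. The log2 fold change was −1.64 at 6 hpi and −1.38 at 12 hpi against 0 h, and with each library left out in turn it ran from −1.76 to −1.50 and from −1.53 to −1.28. Because these are bulk samples, fewer cells with the RNA and less RNA per cell cannot be told apart, here and below.

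Lying on chromosome 13, the annotated lncRNA ENSBTAT00000083160 had the pattern most like it over the 9 libraries, with a Pearson correlation of log2(FPKM + 0.1) of 0.953. Its means were 5.17 FPKM at 0 h, 2.67 at 6 hpi and 2.80 at 12 hpi. TCONS_00011257 on chromosome 10 (0.926) and TCONS_00082854 on chromosome 22 (0.914) came next. For ENSBTAT00000069275 the closest were LINC383 on chromosome 14 (0.924), NPAT-OT1 on chromosome 15 (0.822) and LINC1302 on chromosome 5 (0.802). Its extreme values in 0 h replicate 2 and 12 hpi replicate 1 largely set these correlations. ENSBTAT00000069275 itself ran from 0.333 to 16334 FPKM, while the mean FPKM of those 3 lncRNAs stayed between 0.704 and 1.73 at every time point. Likeness was sought among the 1948 lncRNAs tested, and no p is attached to the highest values.

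TCONS_00153831 (ENSBTAG00000054344-AS1), antisense to a gene without a symbol on NKLS02002134.1 (45674 to 53464), was the most abundant member by its median and rose with LPS. Its FPKM was 6.11, 5.64 and 12.9 at 0 h, 11.8, 13.5 and 17.3 at 6 hpi and 29.9, 17.6 and 22.7 at 12 hpi. The values of 12 hpi did not overlap those of 0 h or 6 hpi, while 0 h replicate 3 reached into the range of 6 hpi. Group means were 8.22 ± 4.07, 14.2 ± 2.78 and 23.4 ± 6.17 FPKM (SD, n = 3). From 0 h to 12 hpi the log2 fold change was 1.57 (standard error 0.34, unadjusted p = 0.00119, adjusted p = 0.157 from limma), which met the thresholds and held the smallest adjusted p of the tested members. Without 0 h replicate 3 it was 1.94, and with 0 h replicates 1 and 2 left out together it was 0.82 and did not meet them. At 6 hpi against 0 h it was 0.87 (adjusted p = 0.509), at 12 against 6 hpi 0.70 (adjusted p = 0.629), and neither met the thresholds, although the change at 6 hpi did without 0 h replicate 3, at 1.24.

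The other antisense member, TCONS_00153191 (ENSBTAG00000001836-AS1) on NKLS02000657.1, was scarce. It had 1.34 FPKM in 12 hpi replicate 1 and 0.0967 to 0.453 in the other 8 libraries, and was not tested.

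NKLS02001967.1 carried the largest group, 7 sense lncRNAs that all overlap each other between positions 6280 and 101819. Of these, 5 (OT2, OT4, OT5, OT6 and OT7) overlap ENSBTAG00000051588, and the other 2 (OT2 and OT3) overlap ENSBTAG00000049392, genes without a symbol in the files. OT4 and OT5 have the same outer ends, 43140 and 101819. Transcripts of the first gene had values that went in opposite directions with LPS.

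TCONS_00153730 (OT5 of ENSBTAG00000051588) was close to 0 in untreated cells, with 0.0157, 0.0313 and 0.0274 FPKM. It had 3.99, 0.0496 and 0.354 FPKM at 6 hpi and 2.50, 2.6 and 0.534 at 12 hpi. All 6 libraries of LPS-treated cells were higher than the untreated ones, and 6 hpi replicate 2 only slightly so. Only libraries of LPS-treated cells exceeded 0.5 FPKM, so it entered the tests through the groups where it was high. Its p-values are therefore given as a description. At 12 hpi it rose by 3.72 on the log2 scale against 0 h (standard error 1.09, unadjusted p = 0.00751, adjusted p = 0.213 from limma) and met the thresholds, as it did without 0 h replicate 3 (3.74). With 0 h replicates 1 and 2 left out together the value was 3.69 and the unadjusted p 0.0684. At 6 hpi it was 2.39 (unadjusted p = 0.0555, adjusted p = 0.517) and did not, but it met them without 6 hpi replicate 2 (3.45), and without 6 hpi replicate 1 it was 1.06. Between 12 and 6 hpi it met the thresholds only without 6 hpi replicate 1, at 2.66. These changes of a transcript near 0 depend on the pseudocount of 0.1. At 12 hpi against 0 h the log2 fold change was 4.41 with a pseudocount of 0.05 and 1.39 with a pseudocount of 1.

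TCONS_00153731 (OT4) went with it, at 0.541, 0.254 and 0.329 FPKM at 0 h, 3.45, 0.340 and 1.42 at 6 hpi and 1.29, 1.59 and 1.33 at 12 hpi. The values of 12 hpi were all above those of 0 h, and at 6 hpi replicate 2 stayed within the untreated range. Among untreated libraries only 0 h replicate 1 exceeded 0.5 FPKM, so OT4 too entered the tests through the groups where it was high. Its p-values are likewise a description. Its log2 fold change met the thresholds at 6 hpi (1.54, standard error 0.65, unadjusted p = 0.0421, adjusted p = 0.509 from limma) and at 12 hpi (1.70, standard error 0.65, unadjusted p = 0.0277, adjusted p = 0.291). Both calls were weak. Without 0 h replicate 3 the values were 1.49 and 1.65 and no longer met the thresholds by p. The call at 6 hpi was also lost without 0 h replicate 2 (1.35), 6 hpi replicate 1 (0.83), 6 hpi replicate 3 (1.44) or any 1 of the 12 hpi libraries (1.54 each), and the call at 12 hpi without 0 h replicate 2 (1.51) or any 1 of the 12 hpi libraries (1.61 to 1.76). The 2 transcripts had the highest correlation of the 21 pairs on this scaffold, 0.9 over 9 libraries. The same library, 6 hpi replicate 1, held the highest value of OT4, OT5 and OT6.

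TCONS_00153729 (OT7) had 2.14, 2.63 and 1.09 FPKM at 0 h, 1.28, 0.741 and 0.765 at 6 hpi and 1.26, 0.575 and 1.11 at 12 hpi. Only 0 h replicate 3 overlapped the treated libraries. Its log2 fold changes against 0 h, −0.95 at 6 hpi and −0.90 at 12 hpi (adjusted p = 0.509 and 0.369 from limma), did not meet the thresholds, and without 0 h replicate 3 they did, at −1.30 and −1.25. They also did at 6 hpi without 6 hpi replicate 1 (−1.18) and at 12 hpi without 12 hpi replicate 1 (−1.10). TCONS_00153705 (OT2) was almost level, between 0.687 and 1.08 FPKM in all libraries, and TCONS_00153732 (OT6) ranged from 0.328 to 1.48.

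Taken as shares of the FPKM summed over the 5 lncRNAs of ENSBTAG00000051588, OT4 and OT5 together made 12.5%, 6.47% and 11.3% at 0 h. They made 68.3%, 17.5% and 44.3% at 6 hpi and 56.6%, 70.5% and 43.6% at 12 hpi. The share was larger in every treated library than in any untreated one. OT7 was the leading transcript of untreated cells with 48%, 59.6% and 34.3%, and had 9.68% to 33.2% after LPS. These 2 shares were singled out after their values were seen and were not tested. The summed FPKM itself was 4.01 ± 0.731 at 0 h, 5.71 ± 4.57 at 6 hpi and 5.64 ± 1.24 at 12 hpi (SD, n = 3), and its log2 fold changes of 0.22 and 0.47 against 0 h did not meet the thresholds (adjusted p = 0.886 and 0.633 from limma over 1619 genes).

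**Figure D3:**
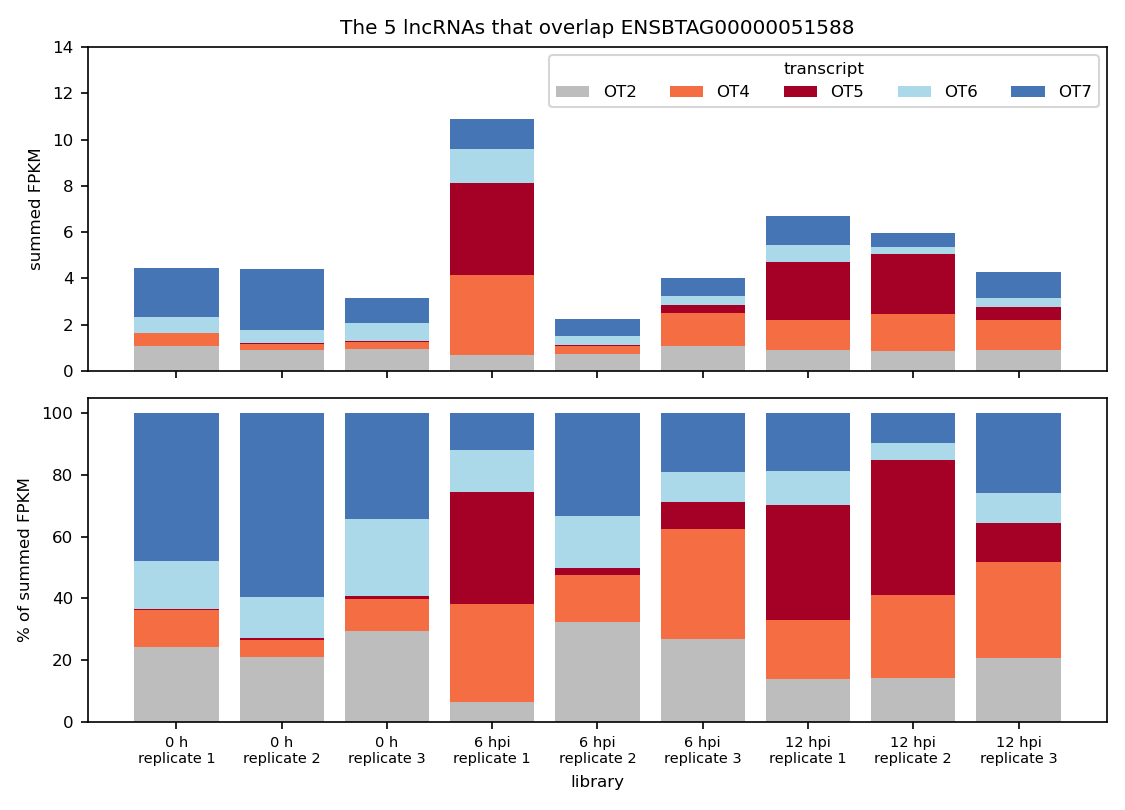
FPKM of the 5 lncRNAs overlapping ENSBTAG00000051588 stacked for each library (upper panel) and as percent of their sum (lower panel). OT4 and OT5 together fill 6.47% to 12.5% of the untreated bars and 17.5% to 70.5% of the bars of LPS-treated cells, and the total is highest in 6 hpi replicate 1 at 10.9 FPKM.

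Both lncRNAs of ENSBTAG00000049392, which overlap the same stretch, were lower after LPS by their values. TCONS_00153746 (OT2) had 0.689, 0.387 and 0.428 FPKM at 0 h, 0.222, 0.369 and 0.0418 at 6 hpi and 0.0643, 0.112 and 0.155 at 12 hpi. TCONS_00153747 (OT3) had 0.857, 0.738 and 0.445 at 0 h, 0.473, 0.1 and 0.213 at 6 hpi and 0, 0.240 and 0.0546 at 12 hpi. For OT2 the treated libraries were all below the untreated ones, and for OT3 those of 12 hpi were. Neither exceeded 0.5 FPKM in 3 libraries, so neither was tested. In a fit of all 2257 lncRNAs they met the thresholds at 12 hpi, with log2 fold changes of −1.50 and −2.13 (adjusted p = 0.299 and 0.215 from limma). Their sum per gene did as well, at −1.2 at 6 hpi (adjusted p = 0.406) and −2.14 at 12 hpi (adjusted p = 0.113). That sum exceeded 0.5 FPKM in all untreated libraries and, among treated ones, in 6 hpi replicate 1 alone. It thus passed the filter of the fit per gene through the group where it was high, and its p-values are a description.

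The 5 lncRNAs of NKLS02000657.1 lie at genes of which 1 has a symbol in the files, ULBP13. In cattle, as in other mammals, ULBP genes encode MHC class I-like surface ligands of the NKG2D receptor of natural killer and T cells, and they are known to mark stressed or infected cells. The RefSeq annotation of ARS-UCD2.0, a later assembly, places ULBP13 on no chromosome either. ULBP13-OT1 (TCONS_00153180, 54524 to 103505) had 0.797, 1.61 and 1.2 FPKM at 0 h, 2.13, 1.48 and 0.836 at 6 hpi and 1.11, 0.596 and 1.03 at 12 hpi. The groups overlapped, and it met the thresholds in none of the 3 comparisons.

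TCONS_00153198 (ENSBTAG00000026437-OT3, 84539 to 87145), which lies within the span of ULBP13-OT1, was the steadiest of the 25. It ranged from 2.89 to 4.38 FPKM over the 9 libraries, a coefficient of variation of 11.3% against 39.6% for ULBP13-OT1. TCONS_00153190 (ENSBTAG00000026437-OT1) ranged from 0 to 1.38 FPKM and TCONS_00153187 (ENSBTAG00000050034-OT2) from 0.447 to 1.08, with overlapping groups. Of this scaffold, 4 lncRNAs were tested and 0 met the thresholds in any comparison with all libraries. TCONS_00153190 met them at 12 hpi against 0 h without 12 hpi replicate 2, at −2.0.

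On NKLS02001410.1, ENSBTAG00000052186-OT1 (TCONS_00153488, 114858 to 124225) was higher at 12 hpi. It had 0.445, 0.492 and 0.506 FPKM at 0 h, 0.479, 0.352 and 0.486 at 6 hpi and 0.672, 1.71 and 0.958 at 12 hpi. The 12 hpi libraries were above all others. Besides them only 0 h replicate 3 exceeded 0.5 FPKM, so this lncRNA entered the tests through the group where it was high. Its p-values are therefore a description. Between 12 and 6 hpi the log2 fold change was 1.09 (standard error 0.36, unadjusted p = 0.0145, adjusted p = 0.545 from limma) and met the thresholds, although it fell to 0.76 without 12 hpi replicate 2 and to 0.97 without 6 hpi replicate 2. Against 0 h it was 0.97 (adjusted p = 0.269) and just below the limit of 1, which it passed without 0 h replicate 3 (1.00), 12 hpi replicate 1 (1.25) or 12 hpi replicate 3 (1.03).

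Its overlapping partner TCONS_00153490 (ENSBTAG00000052186-OT2, 115065 to 131677) was seen in essentially 1 library. It had 2.54 FPKM in 0 h replicate 3, 0.0176 in 12 hpi replicate 2 and was listed at 0 in the other 7. The intergenic LINC1582 (TCONS_00153676) on NKLS02001909.1 was likewise listed at 4.71 FPKM in 6 hpi replicate 2 and at 0 in the other 8 libraries. Each is in the deposited set through a single library, and no comparison of time points was drawn from them. Neighbouring lncRNAs of ENSBTAG00000051836 on NKLS02001139.1, TCONS_00153360 and TCONS_00153361, ranged from 0.402 to 1.47 and from 0.391 to 0.915 FPKM, and neither met the thresholds with all libraries. All 12 hpi libraries of TCONS_00153360 were below those of 0 h. Its log2 fold change of −0.90 (adjusted p = 0.353 from limma) fell just short of the limit, and without 0 h replicate 3 it met the thresholds, at −1.21.

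LINC1571 (TCONS_00152907) on NKLS02000056.1 (1597 to 2549) was the most abundant of the 5 intergenic members and depended on which untreated libraries were used. It had 14.1, 14.9 and 1.54 FPKM at 0 h, 8.49, 5.98 and 4.43 at 6 hpi and 5.39, 6.45 and 6.37 at 12 hpi. The treated libraries lay between the high pair and the low one of the untreated libraries. With all libraries the log2 fold change at 12 hpi was −0.20 (adjusted p = 0.925 from limma). Without 0 h replicate 3 it was −1.25, and with 0 h replicates 1 and 2 left out together it was 1.90, and both met the thresholds. LINC1575, LINC1578 and LINC1585 stayed at or below 1.28 FPKM in every library, and none met the thresholds.

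For the set as a whole, 18 of the 23 members chosen by locus alone exceeded 0.5 FPKM in 3 or more libraries and were tested in 1 fit with all other lncRNAs. With 6 libraries of LPS-treated cells and 3 untreated, this filter more easily passes lncRNAs high with LPS than those high at 0 h. ENSBTAT00000083033 and OT5 of ENSBTAG00000051588 passed it by libraries of LPS-treated cells alone, as did LINC1578, which was not called. Among untreated libraries, OT4 of the same gene as OT5 exceeded 0.5 FPKM in 0 h replicate 1 alone, and ENSBTAG00000052186-OT1 in 0 h replicate 3 alone. Neither would have passed without the groups where it was high. TCONS_00153746 and TCONS_00153747, with their highest values at 0 h, did not pass. The counts below are therefore a description. At 6 hpi against 0 h, 2 of the 18 (11.1%) were higher, ENSBTAT00000083033 and OT4 of ENSBTAG00000051588, and 0 were lower, beside 3.75% higher and 2.31% lower among all 1948 tested lncRNAs. At 12 hpi against 0 h, 3 (16.7%) were higher, TCONS_00153831 and OT4 and OT5, and 0 were lower, beside 6.37% and 3.23%. Between 12 and 6 hpi, ENSBTAG00000052186-OT1 was higher, 1 of 18 (5.56%), and 0 were lower, beside 3.49% and 1.90%. These counts of 1 to 3 members were not tested against the background, and OT4 and OT5 are transcripts of 1 gene. With FPKM centred on the library median, or after quantile normalization, 2 were also lower at 12 hpi, TCONS_00153360 and TCONS_00153729, and the latter at 6 hpi as well. Members with lower values at 12 hpi also lay outside the 18. TCONS_00153746 (−1.50) and TCONS_00153747 (−2.13) met the thresholds there in the fit without a filter. ENSBTAT00000083638 (−1.38) was chosen for being lower and was not counted.

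The median log2 fold change of the 18 was 0.08 at 6 hpi and −0.16 at 12 hpi against 0 h and −0.13 between 12 and 6 hpi. Over all tested lncRNAs it was 0.05, 0.11 and 0.07. Values of all 6 libraries of LPS-treated cells lay above all 3 untreated ones for 2 of the 18 (11.1%, ENSBTAT00000083033 and OT5), against 4.16% of all tested lncRNAs. They lay below them for 0 of the 18, against 2.26%. Outside the 18 they lay below them for ENSBTAT00000083638, which was chosen for lower values, and for TCONS_00153746, which did not pass the filter. The shares of all tested lncRNAs include the listed pair. By limma 0 of the 1948 lncRNAs had an adjusted p under 0.05 in each comparison, while 191, 276 and 157 had an unadjusted p under 0.05, and of the 18 members 4, 5 and 1 had. The smallest adjusted p of a tested member was 0.339, 0.157 and 0.545.

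**Figure D4:**
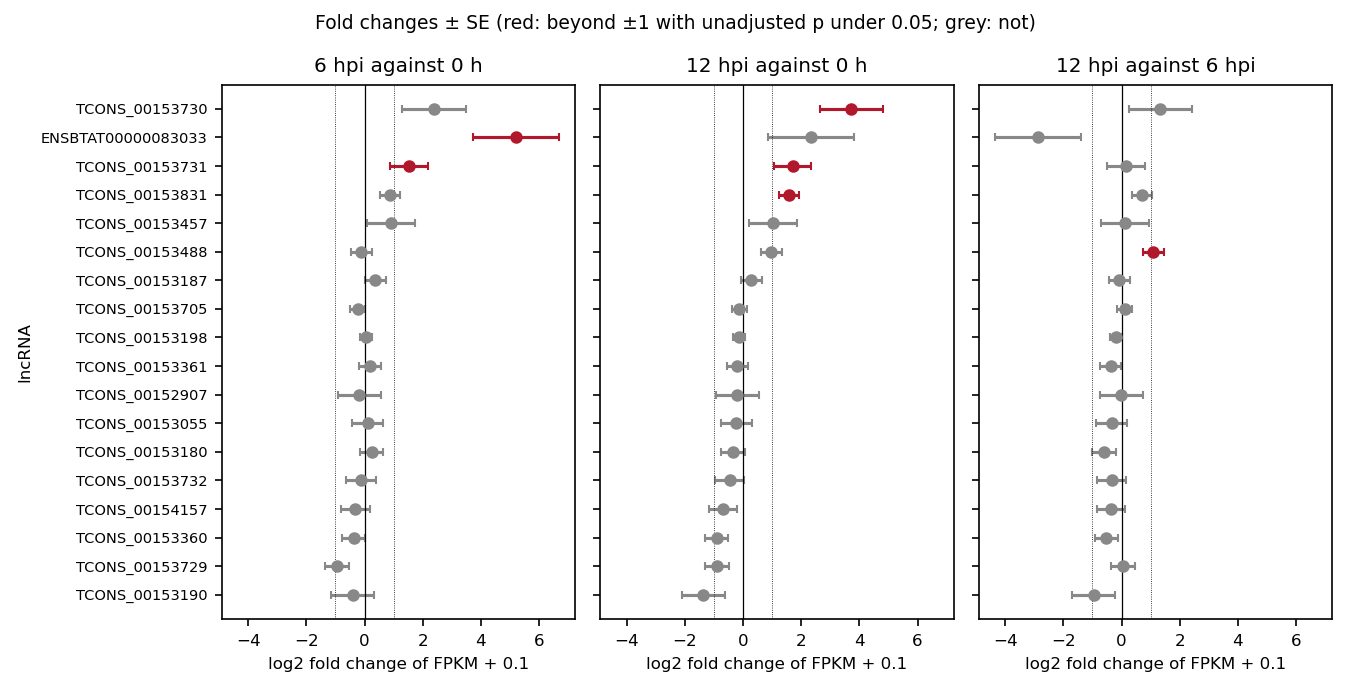
Log2 fold changes of FPKM + 0.1 with standard errors (n = 3 libraries per time point) for the 18 tested lncRNAs of unplaced scaffolds in the 3 comparisons, ordered by the change between 12 hpi and 0 h; red points met the thresholds of the study and dotted lines mark 1 and −1. The 6 red points all lie to the right of 0, from 1.09 to 5.20, and include OT4 at 6 and 12 hpi and OT5 of the same gene. The listed pair and members that did not pass the filter are not drawn. Among these, ENSBTAT00000083638, TCONS_00153746 and TCONS_00153747 had lower values at 12 hpi than at 0 h.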

How the data were processed

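The authors depleted ribosomal RNA, mapped stranded paired reads with HISAT2 (ARS-UCD1.2 per the labels), merged transcripts and kept those without coding potential as lncRNAs. The deposited values are FPKM calculated by the authors from mapped fragments and transcript length. The sources used here do not state whether they were scaled further. The authors' processing notes also name Cuffdiff 2.1.1 and DESeq 1.10.1. One deposited table holds all 9 libraries, and its columns equal the 8 tables of the other libraries. CircRNA tables give no position and were not used.

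The 1948 lncRNAs that exceeded 0.5 FPKM in 3 or more libraries were tested with limma 3.58.1 in R 4.3.3, on log2(FPKM + 0.1) and with an intensity trend, all 9 libraries sharing 1 fit. Tests were two-sided, and Benjamini-Hochberg adjustment covered all of them in each comparison. Calls needed a log2 fold change above 1 in either direction and an unadjusted p under 0.05. The fit was tested on simulated data. The study itself compared groups with Cuffdiff on mapped fragments.

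The members, the lists and the rule for naming were chosen with earlier results of these data known. Named were the listed pair, called members, the 5 highest means, members with a library over 20 times their median, members listed at 0 throughout 1 time point and above 0.5 FPKM throughout another (none was found), the 3 least variable with a mean above 1 FPKM, those sharing a scaffold with the listed pair, and those with a host symbol. Others are named to account for every member. Host identifiers had no match in the reference table of genes, which was used for the symbol ULBP13 alone. Alternatives were pseudocounts, filters, scalings, fit settings, libraries left out and sums per gene.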

Additional observations from a re-analysis of the deposited data

How the results depend on the processing

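Calls among these lncRNAs were few, and libraries left out moved them. With each library left out in turn, the number called ran from 1 to 4 at 6 hpi against 0 h (2 with all libraries), from 2 to 6 at 12 hpi against 0 h (3; 6 without 0 h replicate 3, of which 3 were lower) and from 0 to 2 between 12 and 6 hpi (1). With 0 h replicates 1 and 2 left out together there was 1 in either comparison with 0 h, LINC1571, called higher there (1.91 and 1.90) and lower without 0 h replicate 3 (−1.24 and −1.25), and not called with all libraries. At 6 hpi the count was 1 with a pseudocount of 1, without the trend and with only the 6 libraries compared. At 12 hpi it was 5 without a filter (3 higher and 2 lower, as in both scalings), 5 with values centred on the library median and 5 with quantile normalization. Between 12 and 6 hpi it was 0 with pseudocounts of 0.5 and 1 and 0 when FPKM was summed per gene. The direction of ENSBTAT00000069275 turned at 6 hpi to 2.01 without 0 h replicate 2 (lowest value −5.59, without 0 h replicate 3) and 2.24 with both 0 h replicates 1 and 2 left out, and between 12 and 6 hpi to −0.48 without 12 hpi replicate 1 (highest 4.85, without 12 hpi replicate 3). At 12 hpi against 0 h, where it was −0.01, it turned to 0.057 with a pseudocount of 0.05, 0.94 with quantile normalization, 4.98 without 0 h replicate 2, 5.21 with 0 h replicates 1 and 2 left out, 1.56 without 12 hpi replicate 2 and 1.87 without 12 hpi replicate 3 (lowest −3.46, without 12 hpi replicate 1). The lncRNAs called with all libraries kept their direction under the alternatives run. The cause of these changes was not tested.

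The sources used here do not say whether replicate numbers pair the libraries. Deviations of same-numbered libraries from their group means correlated between −0.0754 and 0.0728, and those of differently numbered ones between −0.0534 and 0.0856. Of 18 best matches, 3 had the same number. These values show no pairing but cannot exclude it. With replicate number as a block the counts called were 2, 3 and 1, as without it.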
